A study of Mus musculus with 6 samples.

Results

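Guidance genes of the semaphorin, plexin, ephrin, Eph receptor, netrin, Unc5, Slit and Robo families were examined in mouse prostate stromal cells carrying S37A β-catenin. Members were taken by gene symbol, as every measured gene of these 8 families, which gave 66 of the 24346 symbols in the files: 20 semaphorins, 9 plexins, 14 Eph receptors, 8 ephrins, 4 netrins, 4 Unc5 receptors, 3 Slits and 4 Robo receptors. The S37A group held 3 libraries of primary stromal cells with a lentiviral FU-CGW construct encoding S37A β-catenin, in which a serine whose phosphorylation leads to degradation of the protein is replaced by alanine. The Vec group held 3 libraries of such cells with the vector alone. Both groups came from prostates of C57BL/6 mice aged 8 to 12 weeks, and the cells were grown on collagen I with 1e-10 M dihydrotestosterone, an androgen. The source name in the labels is prostate stroma cells, which is followed here. The treatment protocol in the labels instead names UGSM cells or dissociated prostate cells as those infected. The labels give neither the share of cells that carried the virus nor whether replicate libraries trace to different mice or cultures, so the p-values measure only the spread between these libraries, which may be technical.

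Guidance cues were named for steering growing axons and are also used by blood vessels, epithelia and mesenchyme to control adhesion, migration and spacing of cells. Semaphorins act through plexins, often with neuropilins as co-receptors. Ephrins sit on the cell surface and bind Eph receptor tyrosine kinases on neighbouring cells, netrins bind DCC, neogenin and Unc5 receptors, and Slits bind Robo receptors. Stabilised β-catenin acts with TCF/LEF factors, which bind DNA through a core that holds CTTTG.

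Levels are in FPKM, a fragment number corrected for transcript length and library size. The inferred number of fragments per library was 39200000 to 45100000 in S37A and 44600000 to 49200000 in Vec. Axin2, a feedback gene of β-catenin signalling, had 3.29, 2.74 and 2.82 FPKM in S37A cells, against 0.169, 0.0921 and 0.132 FPKM in Vec cells. Its mean was 2.95 FPKM in S37A and 0.131 FPKM in Vec. The fit added a constant to FPKM before taking log2, which understates changes of low genes such as Axin2. On that scale the 95% interval of the Axin2 log2 difference was 1.64 to 1.96 (limma adjusted p = 3.85e-05). The Axin2 log2 difference ran from 0.631 to 3.73 across the alternative settings, which include other constants. Ctnnb1, which encodes β-catenin, had 132, 144 and 146 FPKM in S37A cells, against 116, 99.1 and 116 FPKM in Vec cells (log2 difference 0.35, limma adjusted p = 0.0158, and 0.0567 and 0.0618 without S37A replicates 2 and 3), a level in which the construct and the cells' own gene cannot be told apart. The 7 stromal markers were all expressed, with a sum of 9512 to 9722 FPKM in S37A and 8283 to 8746 FPKM in Vec. Of these 7, Acta2 and Cnn1 were called higher in S37A (limma adjusted p = 0.0267 and 0.00155) and 0 were called lower. Endothelial markers summed to 98.5 to 102.3 FPKM in S37A and 102.4 to 116.3 FPKM in Vec, so the sums did not overlap. Most of that sum was Emcn (67.3 to 70.4 FPKM in S37A, 71.7 to 81.7 FPKM in Vec). Epithelial markers summed to 10.5 to 20.5 FPKM in S37A and 13.1 to 19.2 FPKM in Vec, and glial markers to 5.23 to 6.20 and 5.02 to 6.47 FPKM. Neuronal markers summed to 19.7 to 23.1 FPKM in S37A and 18.4 to 21.9 FPKM in Vec, with Snap25 and Rbfox3 under 0.1 FPKM in every library. Nearly all of that sum was Tubb3 (19.3 to 22.7 FPKM in S37A, 17.7 to 21.3 FPKM in Vec). Macrophage markers summed to 57.7 to 66.3 FPKM in S37A and 21.5 to 26.9 FPKM in Vec, with every S37A library above every Vec library for 12 of the 15 markers and Cx3cr1 under 0.1 FPKM in all libraries. Lyz2 was the largest part of the macrophage sum (33.8 to 38.9 FPKM in S37A, 12.9 to 16.3 FPKM in Vec). In such bulk samples, fewer cells of a type and less RNA per cell cannot be told apart.

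Of the 66 members, 42 averaged 0.5 FPKM or more across the 6 libraries and were tested, and 8 of them (19.0%) differed at an adjusted p under 0.05, against 26.0% of the 12022 genes tested. Sema7a, Sema3c, Slit3 and Sema5a rose in S37A cells (9.52% of the tested members, against 6.06% of all genes), and Sema3e, Sema3a, Ntn1 and Plxnb2 fell (9.52%, against 19.9% of all genes). No result about the members as a group is read from these shares. The higher macrophage and stromal marker sums and the lower endothelial marker sum of the S37A libraries stand beside all of these differences. The part of these sums in the differences was not tested. The split into higher and lower members depends on the scaling: median-ratio scaling gave 7 higher and 2 lower members (10.5% and 7.86% of all genes), quantile normalization gave 6 and 2, and scaling without the 100 most abundant genes gave 6 and 3. So does the order of the total shares: 21.4% of members and 18.4% of all genes were called with median-ratio scaling, and 19.0% of members and 17.1% of all genes after quantile normalization. Leaving the 100 most abundant genes out of the scaling gave 21.4% of members and 20.3% of all genes. The median log2 difference was -0.02 over the members and -0.07 over all genes tested. The groups did not overlap in 16 of the 42 members (38.1%), 8 higher and 8 lower, against 47.8% of all genes.

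The following semaphorin promoters are printed for Sema7a, the member with the largest rise, and for Sema3e and Sema3a, the members with the largest falls. Each window is the 250 bases before a RefSeq start on GRCm38.p6, on the plus strand, overlaps no annotated exon, and has CTTTG or its reverse complement CAAAG in capitals. The windows are chr9:57939862-57940111 for Sema7a, chr5:14025026-14025275 for Sema3e and chr5:13396534-13396783 for Sema3a. The Sema3a window lies inside the annotated gene (chr5:13125414-13602565), before a RefSeq start within it, and not upstream of the whole gene.
Sema7a: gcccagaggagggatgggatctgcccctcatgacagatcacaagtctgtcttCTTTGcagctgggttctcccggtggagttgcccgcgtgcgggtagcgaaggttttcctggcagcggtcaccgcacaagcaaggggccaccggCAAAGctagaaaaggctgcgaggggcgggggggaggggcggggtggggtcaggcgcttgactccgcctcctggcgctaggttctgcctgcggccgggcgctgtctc
Sema3e: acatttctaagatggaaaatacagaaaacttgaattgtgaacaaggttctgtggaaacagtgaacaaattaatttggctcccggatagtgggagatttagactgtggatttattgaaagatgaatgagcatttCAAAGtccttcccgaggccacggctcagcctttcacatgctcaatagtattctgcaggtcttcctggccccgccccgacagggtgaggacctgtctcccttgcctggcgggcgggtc
Sema3a: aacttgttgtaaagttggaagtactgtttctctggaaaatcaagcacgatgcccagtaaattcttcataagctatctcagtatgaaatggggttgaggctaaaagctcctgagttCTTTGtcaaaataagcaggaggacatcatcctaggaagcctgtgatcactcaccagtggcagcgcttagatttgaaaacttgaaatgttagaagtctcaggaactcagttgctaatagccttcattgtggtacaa
Sema7a held 2 copies of the core in a window of 66.4% GC, Sema3e held 1 in a window of 48.0% GC and Sema3a held 1 in a window of 40.8% GC. The windows of Sema3c, Slit3 and Sema5a, which rose, held 0 copies and are not printed because they overlap annotated exons. Plxnb2 has a pair of windows, with 1 and 0 copies, and Ntn1 has no entry. Of all RefSeq windows of this length 48.6% held the core, and their median GC content was 52.4%. In windows of 300 bases that add the 50 bases after the start, CTTTG on either strand stood in 28 of 73 windows of the 57 members with an entry (38.4%) and in 53.9% of all 32851 windows. The longer form CTTTGAT stood in 0 of the 73 windows and in 3.73% of all windows. The matches describe these letters in these windows and nothing about binding.

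Semaphorins, the largest family, held 5 of the 8 called members, 3 higher and 2 lower among 14 tested (35.7%, against 26.0% of all genes). Sema7a, a membrane-linked semaphorin that binds plexin C1 and β1 integrin, had 18.6, 18.1 and 18.3 FPKM in S37A cells, against 9.08, 11.9 and 12.9 FPKM in Vec cells. All S37A libraries lay above all Vec libraries and close together, while the Vec libraries were spread more widely. Its mean was 18.3 ± 0.229 FPKM in S37A and 11.3 ± 1.97 FPKM in Vec (SD, n = 3 each), a ratio of 1.62, and log2(FPKM + 1) differed by 0.67 (SE 0.11, 95% interval 0.42 to 0.92, limma adjusted p = 0.00951). Sema7a lies at chr9:57940112-57962865 on mm10, and it was the member called under every alternative tried and with every single library left out, with adjusted p from 0.00336 to 0.0431.

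The plexin C1 gene, Plxnc1, was itself under the filter, at 0.0772, 0.0616 and 0.0729 FPKM in S37A cells, against 0.0286, 0.0273 and 0.0271 FPKM in Vec cells. The S37A libraries were the higher ones, at an inferred 18.0 to 25.8 fragments each, against at most 9.59 in Vec. Plxnc1 was called when the filter was dropped (limma adjusted p = 0.0269). Its difference in log2(FPKM + 1) was 0.06, small because of the added 1, and its ratio of means was 2.55. Sema4d, a class 4 semaphorin that T cells express, had 0.223, 0.131 and 0.249 FPKM in S37A cells, against 0.128, 0.149 and 0.0819 FPKM in Vec cells, with overlapping groups. Both genes are also expressed by blood cells, and the macrophage marker sum was higher in S37A libraries (57.7 to 66.3 FPKM, against 21.5 to 26.9 FPKM in Vec). The part of macrophage RNA in these values was not tested.

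Class 3 semaphorins are secreted, and 6 of their 7 genes were tested: Sema3c rose, Sema3e and Sema3a fell, and Sema3d, Sema3b and Sema3f were not called. Sema3e, the ligand of plexin D1, had 13.5, 10.5 and 11.6 FPKM in S37A cells, against 14.8, 19.8 and 15.6 FPKM in Vec cells. The groups did not overlap, though S37A replicate 1 and Vec replicate 1 lay near each other. Its mean was 11.8 ± 1.53 FPKM in S37A and 16.7 ± 2.68 FPKM in Vec (SD, n = 3 each), with a log2 difference of -0.46 (SE 0.12, limma adjusted p = 0.0309). The Sema3e call was lost without S37A replicate 2 (adjusted p = 0.0927), S37A replicate 3 (0.0926), Vec replicate 2 (0.0638) or Vec replicate 3 (0.0619), and under median-ratio scaling (0.0604), quantile normalization (0.0595), no filter on low values (0.0654) or use of the most abundant transcript model (0.0519).

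Sema3a, which repels axons and endothelial cells through neuropilin 1 and A-type plexins, had 9.73, 8.66 and 9.06 FPKM in S37A cells, against 10.9, 13.4 and 11.4 FPKM in Vec cells. Every S37A library was below every Vec library. Its mean was 9.15 ± 0.539 FPKM in S37A and 11.9 ± 1.33 FPKM in Vec (SD, n = 3 each), and log2(FPKM + 1) differed by -0.34 (SE 0.08, limma adjusted p = 0.0216). Without S37A replicate 2, S37A replicate 3 or Vec replicate 3 the adjusted p was 0.0733, 0.0724 or 0.0504. The files split Sema3a over transcript models, of which the one of 6422 bases had 5.71 ± 0.43 FPKM in S37A and 8.57 ± 1.51 FPKM in Vec, and the one of 6850 bases had 3.44 ± 0.74 FPKM in S37A and 3.32 ± 0.20 FPKM in Vec. The lower level thus stood in the shorter of these models, a split that rests on the authors' assignment of shared reads and was not tested.

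Sema3c, a ligand of both neuropilins, had 7.63, 6.66 and 6.42 FPKM in S37A cells, against 5.76, 5.08 and 4.80 FPKM in Vec cells. The groups did not overlap, and log2(FPKM + 1) differed by 0.35 (SE 0.08, limma adjusted p = 0.0210, ratio of means 1.32). The Sema3c adjusted p was 0.0506, 0.0563 and 0.0514 without S37A replicates 1, 2 and 3, and 0.0605 and 0.0631 without Vec replicates 2 and 3. Sema3d, another secreted semaphorin, averaged 4.83 ± 0.153 FPKM in S37A and 4.93 ± 0.396 FPKM in Vec (SD, n = 3 each), with a log2 difference of -0.02 (95% interval -0.16 to 0.11, limma adjusted p = 0.781). On mm10, Sema3a lies at chr5:13125414-13602565, Sema3e at chr5:14025276-14256689 and Sema3c at chr5:17574281-17730268. With Sema3d they stand in the order Sema3d, Sema3a, Sema3e, Sema3c within chr5:12383385-17730268, a span of 5.35 Mb, and the span held genes called in both directions.

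Sema5a (chr15:32244810-32696341), a membrane-spanning semaphorin with thrombospondin repeats, had 1.66, 1.46 and 1.44 FPKM in S37A cells, against 1.27, 1.16 and 1.01 FPKM in Vec cells. The groups did not overlap, at low levels in both, and log2(FPKM + 1) differed by 0.23 (SE 0.07, limma adjusted p = 0.0415). Its adjusted p was 0.105, 0.0844 and 0.0842 without S37A replicates 1, 2 and 3, and 0.0866 and 0.109 without Vec replicates 2 and 3. The Sema5a call was also lost with no filter on low values (0.0695) and with the most abundant transcript model (0.0676). None of the class 4 semaphorins tested was called, with means of 4.40, 3.87 and 0.517 FPKM in S37A and 4.83, 4.33 and 0.608 FPKM in Vec for Sema4c, Sema4b and Sema4g. The class 6 genes Sema6d, Sema6a and Sema6c, like Sema3b and Sema3f, averaged 0.688 to 0.926 FPKM in S37A and 0.679 to 1.01 FPKM in Vec and were not called. Of these only Sema6d had groups without overlap, lower in S37A (limma adjusted p = 0.113).

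Summed over the family, semaphorin FPKM came to 69.1, 64.4 and 66.3 in S37A cells, against 62.6, 70.2 and 66.2 in Vec cells, so the totals overlapped while the make-up differed. Sema7a made up 26.9, 28.1 and 27.5% of the semaphorin FPKM in S37A cells, against 14.5, 16.9 and 19.4% in Vec cells. Sema3a made up 14.1, 13.4 and 13.7% in S37A cells, against 17.4, 19.1 and 17.3% in Vec cells. Sema7a was the most abundant semaphorin in every S37A library, and Sema3e was in every Vec library. These shares restate the single-gene differences above and were not tested.

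**Figure D1:**
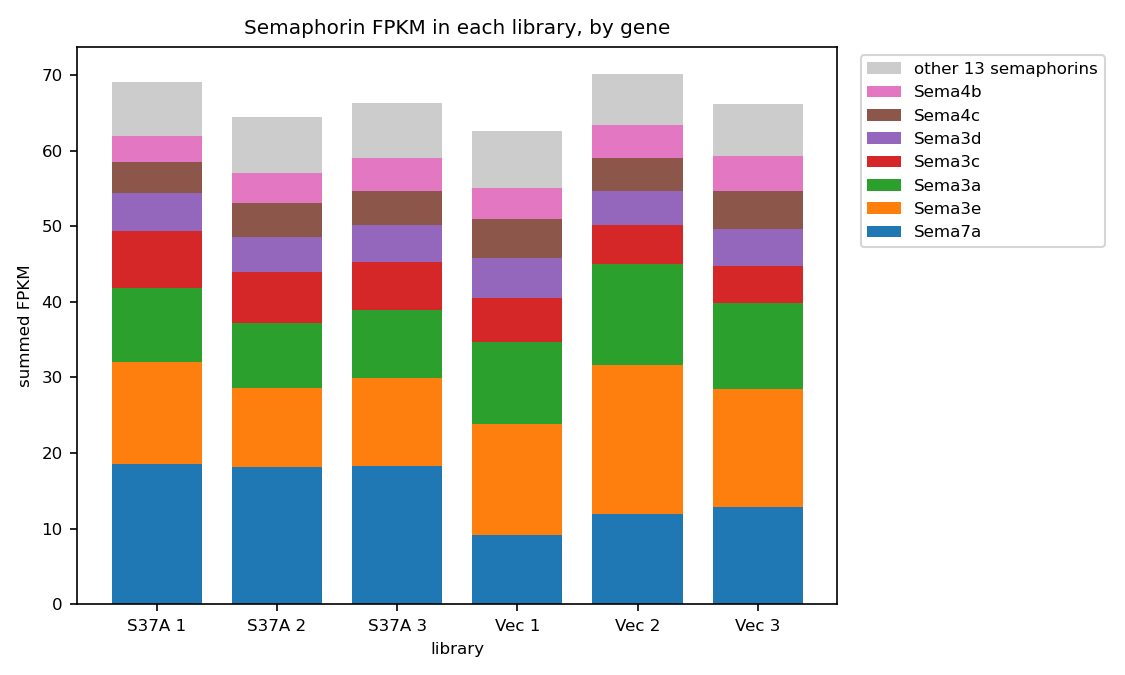
Stacked bars of summed semaphorin FPKM (vertical axis) in each of the 3 S37A and 3 Vec libraries (horizontal axis), coloured by gene. The totals lie between 62.6 and 70.2 FPKM, while the Sema7a segment is 18.1 to 18.6 FPKM in S37A and 9.08 to 12.9 FPKM in Vec.

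Among plexins, the receptors of semaphorins, 1 of 6 tested fell and none rose (16.7% called, against 26.0% of all genes). Plxnb2 (chr15:89155549-89180788), a receptor of class 4 semaphorins, was the most abundant member of all families, with 63.4, 60.7 and 59.6 FPKM in S37A cells, against 66.3, 66.9 and 65.6 FPKM in Vec cells. The S37A libraries lay just below the Vec libraries. On the log2 scale S37A differed from Vec by -0.11 (SE 0.03, limma adjusted p = 0.0486), the smallest among the called members, and it was lost under 14 of 17 alternatives, among them median-ratio scaling (-0.04, adjusted p = 0.502). Leaving out S37A replicate 2 or 3 gave Plxnb2 an adjusted p of 0.133 or 0.160, and leaving out Vec replicate 1, 2 or 3 gave 0.0773, 0.109 or 0.0979.

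Plxna1, a partner of neuropilins, averaged 25.6 ± 0.880 FPKM in S37A and 23.6 ± 0.0946 FPKM in Vec (SD, n = 3 each). Its groups did not overlap, but it missed the threshold (log2 difference 0.11, limma adjusted p = 0.0589), and it was called under median-ratio scaling (0.0222). Plxnd1, the Sema3e receptor, averaged 5.08 ± 0.471 FPKM in S37A and 5.48 ± 0.205 FPKM in Vec (SD, n = 3 each; log2 difference -0.09, 95% interval -0.24 to 0.05). The other plexins tested, Plxna4, Plxna2 and Plxnb1, had means of 0.907 to 1.88 FPKM in S37A and 0.969 to 2.21 FPKM in Vec and were not called.

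**Figure D2:**
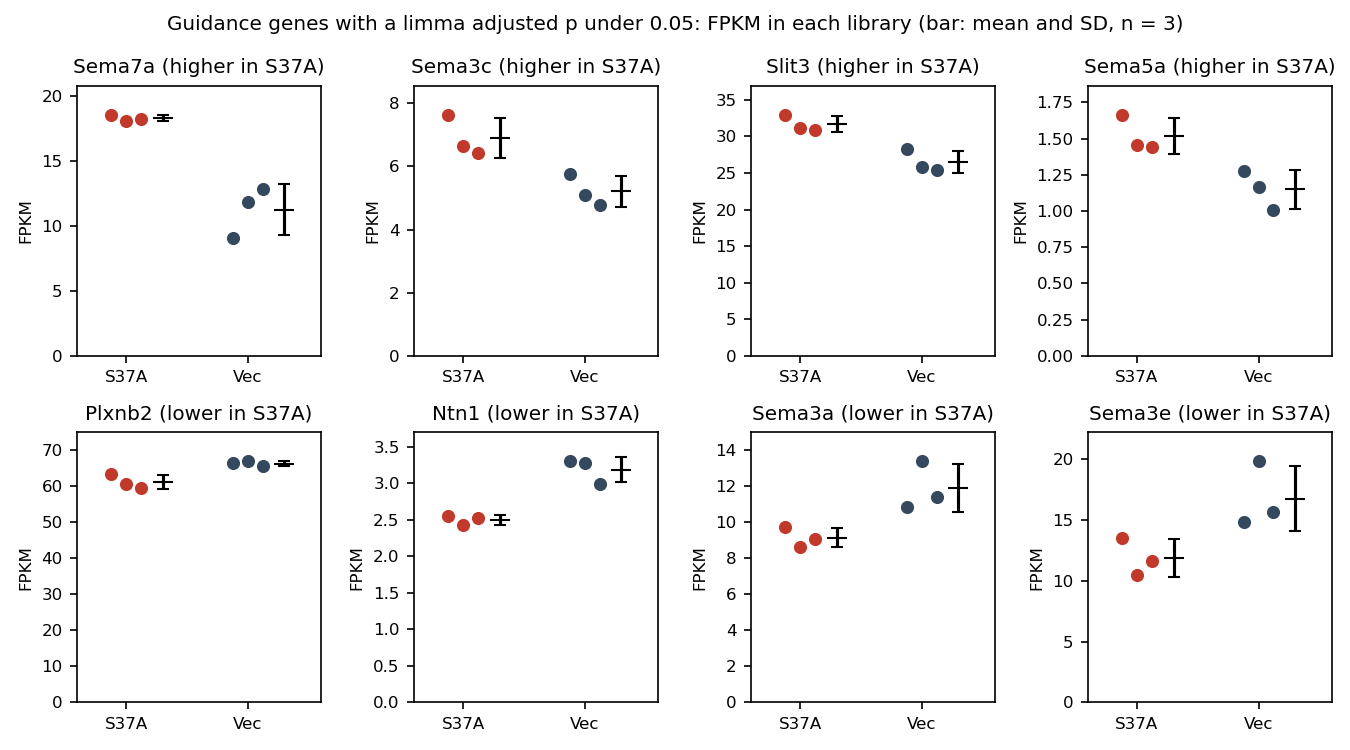
FPKM of the 8 called guidance genes (vertical axes, from 0) in each S37A and Vec library (points), with the mean and SD of 3 libraries beside them. The groups do not overlap in any panel, and the gap is widest relative to its level for Sema7a (18.1 to 18.6 FPKM in S37A, 9.08 to 12.9 FPKM in Vec) and narrowest for Plxnb2 (59.6 to 63.4 FPKM in S37A, 65.6 to 66.9 FPKM in Vec).

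None of the 6 ephrins and 7 Eph receptors tested was called in the fit as reported, against 26.0% of all genes. No result about these families is read from so few genes. Efnb1, a membrane-spanning ephrin and the most abundant one, had 24.4, 22.9 and 22.5 FPKM in S37A cells, against 22.6, 23.0 and 22.2 FPKM in Vec cells. The groups overlapped, and the log2 difference was 0.04 (95% interval -0.06 to 0.13, limma adjusted p = 0.510). Epha2, the most abundant Eph receptor, had 17.0, 16.4 and 16.4 FPKM in S37A cells, against 15.7, 17.5 and 17.6 FPKM in Vec cells, also with overlap. Its log2 difference was -0.02 (95% interval -0.14 to 0.09, limma adjusted p = 0.738), and its sign turned under all 3 other scalings.

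The ephrin-B2 ligand and its receptor EphB4, a pair known for separating arteries from veins, were both abundant. Efnb2 averaged 20.1 ± 0.414 FPKM in S37A and 19.4 ± 0.416 FPKM in Vec, and Ephb4 averaged 15.3 ± 0.352 FPKM in S37A and 16.3 ± 0.437 FPKM in Vec (SD, n = 3 each). Ephb4 groups did not overlap but the difference was not called (log2 -0.08, limma adjusted p = 0.132). Epha3, Efna5 and Efna4 also had groups without overlap and missed the threshold, with log2 differences of -0.21, 0.13 and -0.21 and limma adjusted p of 0.0509, 0.0637 and 0.0698. Efna5 passed with median-ratio scaling (0.0294), quantile normalization (0.0182) and sample weights (0.0210), Epha3 without the trend (0.0362) and with sample weights (0.0315), and Efna4 with sample weights (0.0120). Epha3 averaged 0.647 ± 0.0486 FPKM in S37A and 0.902 ± 0.121 FPKM in Vec (SD, n = 3 each). The remaining tested members, Ephb3, Ephb2, Epha4, Ephb6, Efna3 and Efna1, had overlapping groups.

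**Figure D3:**
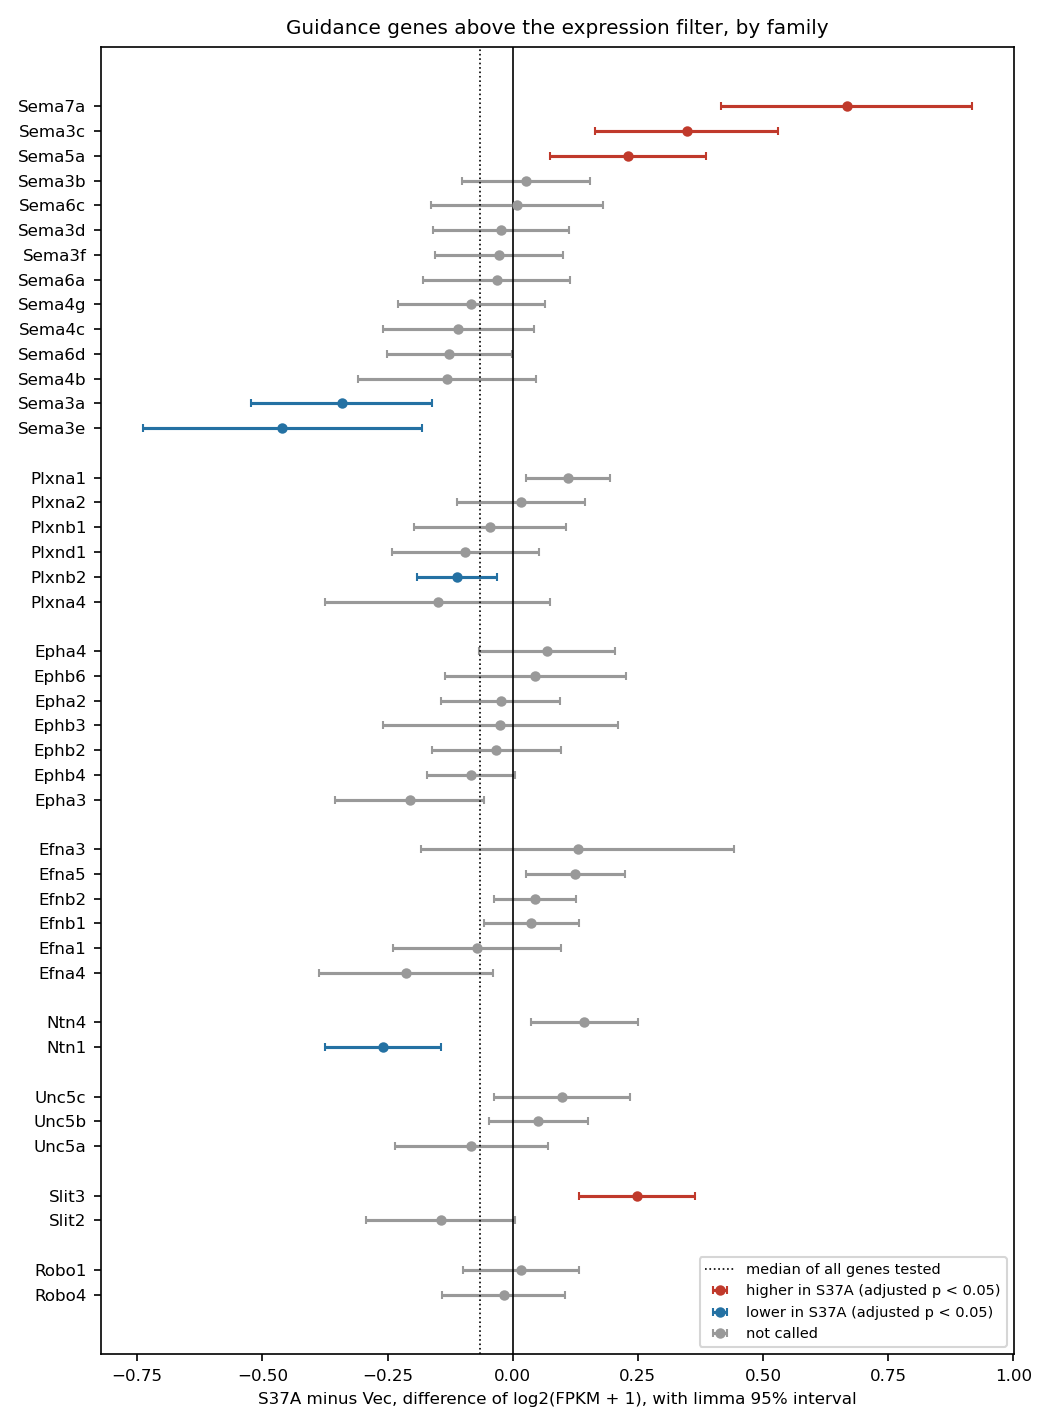
Difference in log2(FPKM + 1), S37A minus Vec (horizontal axis), of the 42 tested guidance genes, grouped by family (vertical axis), with limma 95% intervals; colour marks the 4 higher and 4 lower genes. The dotted line is the median of all genes tested, -0.07, and most points lie near it, with Sema7a farthest right at 0.67 and Sema3e farthest left at -0.46.

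Both netrins tested had groups that did not overlap, in opposite directions. Ntn1 (chr11:68209364-68400823), the secreted ligand of DCC, neogenin and Unc5 receptors, had 2.55, 2.42 and 2.52 FPKM in S37A cells, against 3.30, 3.28 and 3.00 FPKM in Vec cells. Every S37A library was below every Vec library, and log2(FPKM + 1) differed by -0.26 (SE 0.05, limma adjusted p = 0.0140, ratio of means 0.783). Its adjusted p was 0.0519 without S37A replicate 2 and 0.0542 without S37A replicate 3. Ntn4, a netrin that binds laminin in basement membranes, had 41.3, 42.2 and 42.5 FPKM in S37A cells, against 40.4, 36.1 and 37.4 FPKM in Vec cells. All its S37A values were above its Vec values, but the difference missed the threshold (log2 0.14, limma adjusted p = 0.0560). It passed under median-ratio scaling (0.0242) and without Vec replicate 1 (0.0166).

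Unc5b, a netrin receptor of endothelial and other cells, was the main Unc5 receptor, with 30.3, 31.6 and 30.6 FPKM in S37A cells, against 31.0, 28.2 and 30.0 FPKM in Vec cells. The groups overlapped, and the log2 difference was 0.05 (95% interval -0.05 to 0.15, limma adjusted p = 0.384). Unc5a and Unc5c averaged under 1 FPKM in both groups and were not called; Unc5c groups did not overlap (higher in S37A, limma adjusted p = 0.231). The netrin receptor Dcc had 0.0140, 0.00462 and 0.00428 FPKM in S37A cells, against 0.0580, 0.153 and 0.0894 FPKM in Vec cells, and was too low to be tested. All its S37A values were below its Vec values, and without the filter its adjusted p was 0.0502. Neo1, which encodes neogenin, had 13.3, 12.5 and 12.6 FPKM in S37A cells, against 13.5, 14.1 and 13.5 FPKM in Vec cells. Neo1 groups did not overlap, but the gap was small (log2 difference -0.09, limma adjusted p = 0.111).

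Slit3 and Slit2 were the Slits above the filter. Slit3 (chr11:35121224-35708507), a secreted Robo ligand, had 32.9, 31.1 and 30.9 FPKM in S37A cells, against 28.3, 25.9 and 25.4 FPKM in Vec cells. All S37A libraries were above all Vec libraries, and log2(FPKM + 1) differed by 0.25 (SE 0.05, 95% interval 0.13 to 0.36, limma adjusted p = 0.0156, ratio of means 1.19). The adjusted p was 0.0518 without S37A replicate 3, the only library whose absence ended the call. Slit2 averaged 14.2 ± 0.784 FPKM in S37A and 15.8 ± 1.22 FPKM in Vec (SD, n = 3 each) and was not called (log2 difference -0.14, limma adjusted p = 0.127).

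Neither Robo receptor tested, Robo1 or Robo4, was called. Robo1, the most abundant, had 6.61, 6.57 and 6.70 FPKM in S37A cells, against 7.03, 6.36 and 6.26 FPKM in Vec cells. The groups overlapped, and the log2 difference was 0.02 (95% interval -0.10 to 0.13, limma adjusted p = 0.817). Robo4, the Robo of blood vessels, averaged 2.08 ± 0.0787 FPKM in S37A and 2.12 ± 0.135 FPKM in Vec (SD, n = 3 each), also with overlap. Robo2 was under the filter, with 0.223, 0.301 and 0.263 FPKM in S37A cells, against 0.399, 0.390 and 0.367 FPKM in Vec cells. All its S37A values were below its Vec values, and it was called when the filter was dropped (limma adjusted p = 0.0358). The Robo2 difference in log2(FPKM + 1) was -0.13, with a ratio of means of 0.680.

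The 24 members under the filter reached at most 0.622 FPKM in any library, in Efna2. Epha1 was listed at 0 in all 6 libraries, and 14 of the other 23 (60.9%) had a lower mean in S37A than in Vec, against 67.6% of all genes above 0 with a mean under 0.5 FPKM. Groups did not overlap in 4 of them, Plxnc1 (higher in S37A) and Robo2, Epha6 and Epha7 (lower in S37A). The share without overlap among all genes under the filter was not computed, so no result is read from this count. Epha6 was listed at 0, 0 and 0.00541 FPKM in S37A cells, against 0.0391, 0.0466 and 0.0308 FPKM in Vec cells. With the filter dropped it was called (limma adjusted p = 0.0315, difference in log2(FPKM + 1) -0.05, ratio of means 0.0465). That call rests on very few fragments, an inferred 0, 0 and 1 in the S37A libraries, against 8, 9.59 and 6 in the Vec libraries.

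Of 20 co-receptors and related ligands, 11 were tested, 2 rose and none fell (18.2% called, against 26.0% of all genes), and their median log2 difference was 0.05, against -0.07 over all genes. Itgb1, β1 integrin and a receptor of Sema7a, had 968, 880 and 888 FPKM in S37A cells, against 782, 787 and 780 FPKM in Vec cells. The groups did not overlap (log2 difference 0.22, SE 0.04, limma adjusted p = 0.0155, and 0.0522 without S37A replicate 3). Flrt3, a membrane protein that binds Unc5 and Robo1, had 2.96, 2.85 and 3.08 FPKM in S37A cells, against 2.41, 1.99 and 2.37 FPKM in Vec cells. These groups did not overlap either (log2 difference 0.28, SE 0.06, limma adjusted p = 0.0209), and the adjusted p was 0.0532, 0.0536 and 0.0749 without S37A replicates 1, 2 and 3 and 0.108 with the most abundant transcript model. Nrp1, the main Sema3a co-receptor, had 63.0, 58.8 and 60.6 FPKM in S37A cells, against 57.8, 65.8 and 60.9 FPKM in Vec cells. The Nrp1 groups overlapped (log2 difference -0.01, 95% interval -0.14 to 0.11, limma adjusted p = 0.851). Nrp2 had a failed estimate in S37A replicates 1 and 3 and was left out of the test. Its listed values were 54.5, 48.5 and 47.2 FPKM in S37A cells, against 56.0, 61.2 and 54.2 FPKM in Vec cells, with overlapping groups.

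Of 44 signalling effectors, 42 were tested, 5 rose and 7 fell (28.6%, against 26.0% of all genes), with a median log2 difference of -0.02. Mical2, an enzyme that oxidises and disassembles actin, had 40.0, 39.9 and 39.7 FPKM in S37A cells, against 25.7, 28.3 and 29.6 FPKM in Vec cells. The S37A values were close together and well above the Vec values (log2 difference 0.50, SE 0.05, limma adjusted p = 0.00303). Enah, an actin filament elongation factor, had 19.8, 20.6 and 20.4 FPKM in S37A cells, against 15.5, 16.3 and 17.1 FPKM in Vec cells. Its groups did not overlap (log2 difference 0.30, SE 0.04, limma adjusted p = 0.00792). Dpysl2, the CRMP2 protein that relays Sema3a signals to microtubules, had 4.21, 4.31 and 4.39 FPKM in S37A cells, against 5.32, 5.25 and 5.34 FPKM in Vec cells. The Dpysl2 groups were separate and tight (log2 difference -0.25, SE 0.04, limma adjusted p = 0.00925). Arhgef11, a guanine nucleotide exchange factor that binds B-type plexins, had 10.9, 10.8 and 10.6 FPKM in S37A cells, against 12.7, 13.3 and 12.5 FPKM in Vec cells, again without overlap (log2 difference -0.24, SE 0.04, limma adjusted p = 0.0100).

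**Figure D4:**
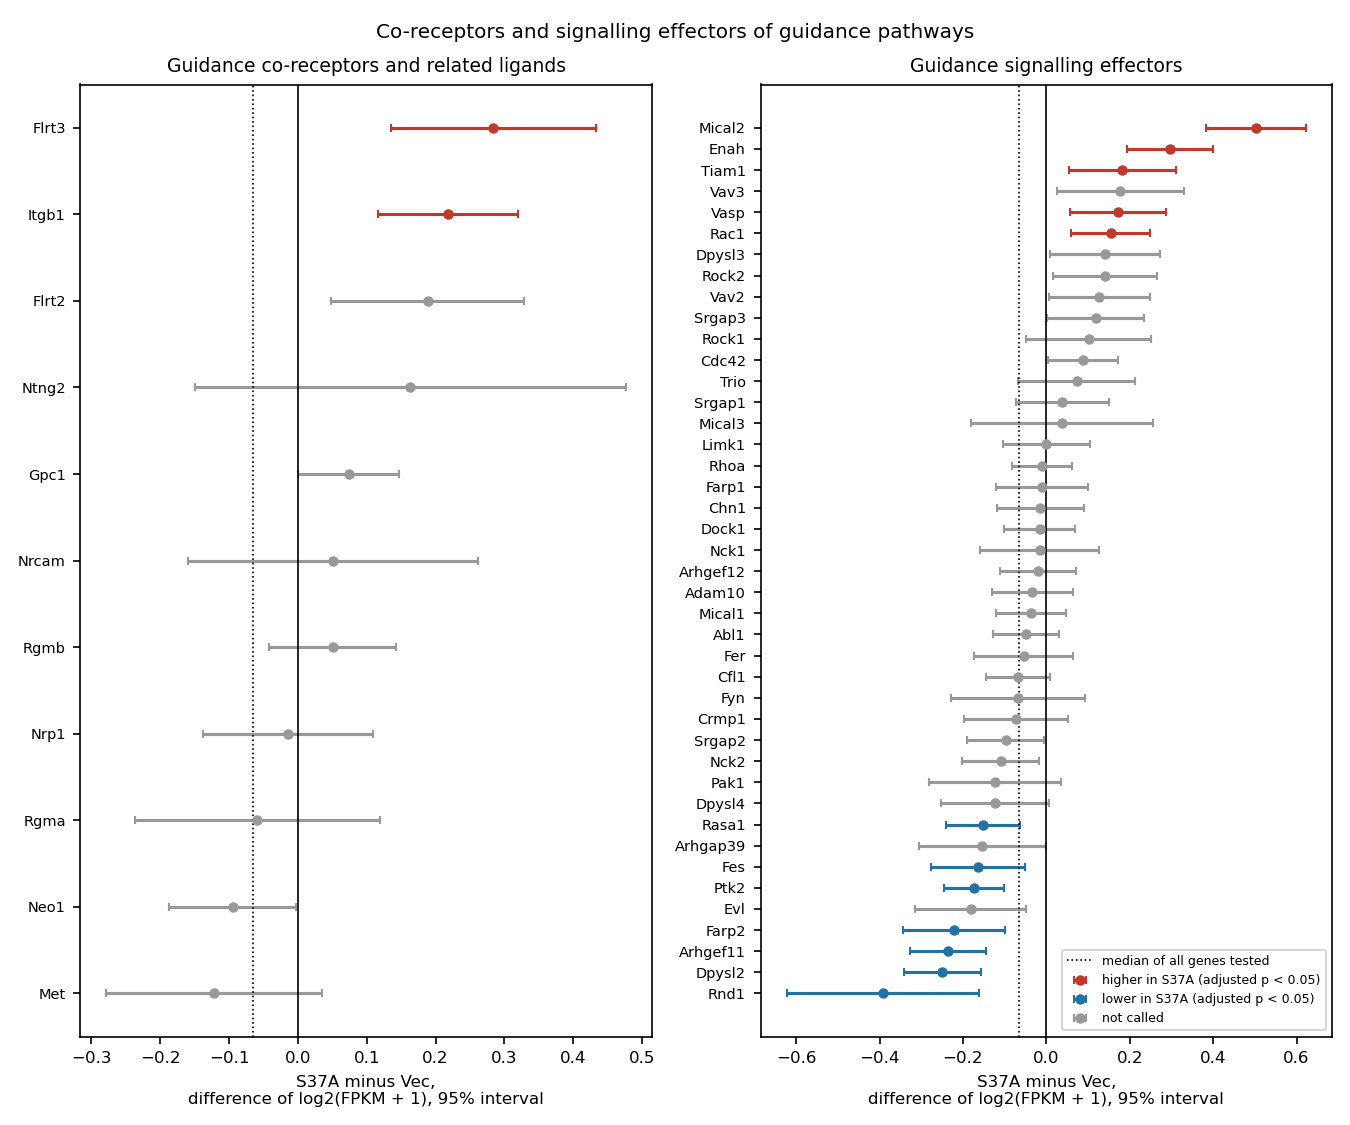
Difference in log2(FPKM + 1), S37A minus Vec (horizontal axes), with limma 95% intervals, of the 11 tested co-receptors and related ligands (left) and the 42 tested signalling effectors (right), ordered by difference. Colour marks the called genes: 2 higher on the left, 5 higher and 7 lower on the right, with Mical2 at 0.50 the highest effector.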

How the data were processed

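RNA of 3 S37A and 3 Vec libraries was measured with SMART-Seq v4 and Illumina sequencing, per the labels' protocols; that kit does not mark strand. No annotated exon of another gene overlaps the exons of the 8 called members in GENCODE M21 on mm10, the source of gene positions. The submitters' processing notes name mm10, Cufflinks, TopHat and bcl2fastq 1.8.3. The deposited files hold FPKM per transcript model with interval bounds, per the file headers. Their coverage, a signal per model in the deposited files, was a median of 4.28 to 5.37 times FPKM by library, over models above 5 FPKM. The spread of this ratio between models was not measured. Counts were not used here, and fragment numbers were inferred from interval widths; they cover counting error only.

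FPKM was summed per symbol. Genes averaging 0.5 FPKM or more with status OK in all libraries (5 symbols had another status) were tested on log2(FPKM + 1), which understates changes of low genes, with limma 3.58.1 (R 4.3.3), an intensity trend and Benjamini-Hochberg adjustment over 12022 genes, without a block. Differences are S37A minus Vec. Groups and replicate numbers come from the titles. Named genes were the called members, the most abundant member of each family, the called co-receptors and effectors with the 4 smallest p, and Nrp1, Nrp2, Dcc and Neo1; every other member is given by its mean, range or count. Plxnc1, Sema4d, Robo2 and Epha6 and the members without overlap were named after their values were seen. The members and lists were chosen with earlier results of these data known. Alternatives covered pseudocount, filter, scaling, trend, weights, block, transcript model and each library left out; the shorter promoter core was added after seeing the data. On simulated data with 12022 genes, the fit recovered 17.5%, 84.5% and 98.5% of 200 genes given log2 changes of 0.25, 0.5 and 1, with 0, 11 and 8 false calls. Only those 200 genes were changed there, while 3122 were called in the real data. The Benjamini-Hochberg cut-off was therefore stricter in the simulation, and the shares recovered need not hold for the real comparison. A member not called is not shown to be equal between the groups.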

Additional observations from a re-analysis of the deposited data

How the results depend on the processing

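Sema7a was called under every alternative tried. The members called higher and lower (4 and 4 as reported) were 7 and 2 with median-ratio scaling, 6 and 2 with quantile normalization, 7 and 6 with sample weights, 3 and 2 with a filter at 5 FPKM, 3 and 2 with the most abundant transcript model, and between 1 and 5 higher and between 0 and 4 lower with 1 library left out. Without S37A replicate 3 only Sema7a was called, and without S37A replicate 2 only Sema7a and Slit3. Dropping the filter kept 4 and 4, of which 5 were shared with those reported. The co-receptors called higher (2) were 4 with median-ratio scaling, 4 with quantile normalization, 1 with the filter at 5 FPKM, 1 with the most abundant model and 0 to 3 with 1 library left out; those called lower (0) were 2 with sample weights and 0 with any library left out. The effectors called higher (5) were 9 with median-ratio scaling, 2 without the filter, 3 with the most abundant model and 2 to 3 with a library left out; those called lower (7) were 2 with median-ratio scaling, 3 with quantile normalization, 4 without the filter and 2 to 7 with a library left out. Over all genes, the counts called higher and lower were 1265 and 945 with median-ratio scaling and 1094 and 959 with quantile normalization. Of the tested members and all genes, 31.0% and 40.7% were called with sample weights and 29.4% and 28.3% with the filter at 5 FPKM. The shares were 12.8% and 16.9% with the most abundant model and 12.3% and 11.8% without the filter. With 1 library left out, 2.38% to 19.0% of members and 6.85% to 26.2% of all genes were called. The cause of these shifts was not tested; leaving out a library removes samples.

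The Epha2 log2 difference (-0.02 as reported) turned to 0.047 with median-ratio scaling, 0.020 with quantile normalization and 0.0091 without the 100 most abundant genes, and ran from -0.076 to 0.0036 with 1 library left out. The Nrp1 log2 difference (-0.01) turned to 0.060, 0.016 and 0.020 under the same scalings and ran from -0.058 to 0.034 with 1 library left out. The Robo1 log2 difference (0.02) ran from -0.011 to 0.062 with 1 library left out. None of these passed the threshold.

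With the replicate block, 3 members were called higher and 1 lower (Sema7a, Sema3c, Slit3 and Ntn1), 3 effectors higher and 3 lower. The members called were 9.52% of those tested, against 13.6% of all genes. Same-numbered libraries of the groups had correlations of -0.12, 0.02 and 0.10 in their deviations. Those of libraries with different numbers ran from -0.13 to 0.10. So few values cannot show whether same-numbered libraries share a culture or a mouse, which the labels do not say.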

Other observations

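The chromosome 5 span from Sema3d to Sema3c (12383385 to 17730268 on mm10) holds 21 protein-coding genes, and 3 besides the semaphorins were tested. Hgf, the ligand of the Met receptor, had 0.760, 0.801 and 0.773 FPKM in S37A cells, against 1.03, 1.14 and 0.986 FPKM in Vec cells (log2 difference -0.21, limma adjusted p = 0.0303). Speer3, one of a family of near-identical copies whose reads can be split uncertainly, had 1.33, 0.814 and 0.998 FPKM in S37A cells, against 1.76, 2.35 and 2.15 FPKM in Vec cells (log2 difference -0.60, limma adjusted p = 0.0122). Cacna2d1, a calcium channel subunit, was not called (limma adjusted p = 0.591). Of the untested genes of the span with a value, 9 of 9 had a lower mean in S37A, against 67.6% of all genes above 0 with a mean under 0.5 FPKM. They include Speer4c, Speer4d, Speer4e and Speer4f1 of the Speer family and reached at most 0.180 FPKM in any library. The 9 genes are thus near the floor and not independent. These neighbours were looked at after the semaphorin values were seen.

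The Robo4 transcript model of 3860 bases took 86.5, 84.1 and 100% of Robo4 FPKM in S37A libraries, against 48.0, 42.6 and 80.9% in Vec libraries. Vec replicate 3 lay close to S37A replicate 2. The other model has 3839 bases, the split rests on the authors' assignment of shared reads, and the difference was not tested.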
